A study of Mus musculus with 6 samples.

Results

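The miRNAs described here are miR-146a, miR-146b, miR-155 and miR-21a, which are widely studied as regulators and products of inflammatory signalling. Their hairpin genes were found in the count table by their Ensembl identifiers under the GENCODE M21 gene names Mir146 (mir-146a), Mir146b, Mir155 and Mir21a, and they make up 4 of the 1973 rows of the table. The rows were matched by name, with no threshold on a measured value, but the miRNAs themselves were picked with earlier results of these data known. Small RNA was sequenced from exosomes that a mouse embryonic hippocampal cell line, HN9.10e, had shed into its medium. The control group held 3 libraries from untreated cells, and the ceramide group held 3 libraries from cells given 100 nmol/L ceramide for 48 h. Both groups came from the same wild-type line, which the labels call HN9.10 and describe as immortalized hippocampal neurons, grown in medium with fetal bovine serum. A vehicle for the control cells is not given in the sources used here.

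miR-146a is induced by NF-κB after Toll-like receptor signalling and acts as a brake on it, because it represses the signalling proteins IRAK1 and TRAF6. miR-146b is its close relative, encoded by a separate gene. miR-155 is processed from a long non-coding host RNA that activated immune cells switch on, and it is best known for strengthening inflammatory responses. miR-21 is abundant in many cell types and in their vesicles, and rises in many inflamed and proliferating tissues. In the nervous system these miRNAs are mostly studied in glia, where they are linked with neuroinflammation.

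The mature 5p sequences of the members are shown because they decide which rows can share targets and which reads can be told apart. They were taken from RefSeq (GRCm38.p6), where all 4 hairpins were found. Capitals mark the seed, bases 2 to 8 from the 5′ end, which is the stretch that pairs with targets.
Mir146, miR-146a-5p: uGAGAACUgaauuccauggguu
Mir146b, miR-146b-5p: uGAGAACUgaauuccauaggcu
Mir155, miR-155-5p: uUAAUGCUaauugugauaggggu
Mir21a, miR-21a-5p: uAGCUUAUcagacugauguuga
The first pair of sequences had the same seed, the letters GAGAACU, which no other mature mouse miRNA in that table carried. They were identical over their first 17 bases and differed by the substitutions G18A and U21C, written as the base of miR-146a-5p, the position from the 5′ end and the base of miR-146b-5p. The seed of miR-155-5p was found in no other mature miRNA, and that of miR-21a-5p was shared with miR-21c.

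The hairpins of the miR-146 pair are shown because each row of the table counts a whole hairpin, so that its 5p and 3p miRNAs cannot be separated. Capitals mark the mature 5p and 3p miRNAs.
Mir146 hairpin: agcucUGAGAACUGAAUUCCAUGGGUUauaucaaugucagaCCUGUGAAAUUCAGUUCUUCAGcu
Mir146b hairpin: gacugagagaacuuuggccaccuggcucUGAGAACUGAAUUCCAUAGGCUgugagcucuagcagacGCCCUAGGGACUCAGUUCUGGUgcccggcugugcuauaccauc
The longest run of bases common to both hairpins was 21 bases. A read shortened to its first 17 bases would fit both rows, and how the authors' counting treated such a read is not given in the sources used here.

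In GRCm38 (GENCODE M21), the Mir146 hairpin (ENSMUSG00000065601) of 65 bases lies at chr11:43374397-43374461 on the minus strand, where no other gene is annotated. The Mir146b hairpin (ENSMUSG00000070127) of 109 bases lies at chr19:46342762-46342870 on the plus strand, in an intron of the protein-coding gene Mfsd13a. The Mir155 hairpin (ENSMUSG00000065397) of 65 bases lies at chr16:84714140-84714204 on the plus strand, in an exon of its host RNA Mir155hg. The Mir21a hairpin (ENSMUSG00000065455) of 92 bases lies at chr11:86584067-86584158 on the minus strand, in an exonic UTR of the protein-coding gene Vmp1. All 3 host genes are on the strand of their hairpin.

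The libraries held between 800810 and 2760015 counts in all, and 418 rows had enough counts to be tested. Levels are given as CPM, counts scaled to libraries of equal size with edgeR's TMM factors, and the SD is that of the 3 libraries in each group. The replicates are separate samples in the labels, which do not say whether they are separate cultures, so the tests measure the spread between these libraries. A row was called where edgeR's quasi-likelihood test gave p at or under 0.05 after Benjamini-Hochberg adjustment over all 418 rows and the log2 fold change of ceramide over control was at least 0.6 in either direction. By this rule 48 rows (11.5%) were called, and 35 rows (8.37%) were called lower in ceramide. The balance of 13 higher and 35 lower calls moved with the scaling, to 21 and 26 with the size factors of DESeq2, 23 and 28 with upper-quartile factors and 4 and 42 with library size alone. In bulk exosomes, fewer vesicles carrying a miRNA and fewer copies per vesicle cannot be told apart.

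Ceramide exosomes held less miR-146a, a brake on Toll-like receptor signalling, than control exosomes. The level of its close relative miR-146b, which has the same seed, was 641 CPM in control against 658 CPM with ceramide. miR-21a, among the most abundant miRNAs of these exosomes, had a smaller decrease that passed the test but not the fold threshold. miR-155 was at the limit of detection in every library. Of the 4 members, 3 were tested and 1 was called, against the 11.5% of all tested rows.

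**Figure D1:**
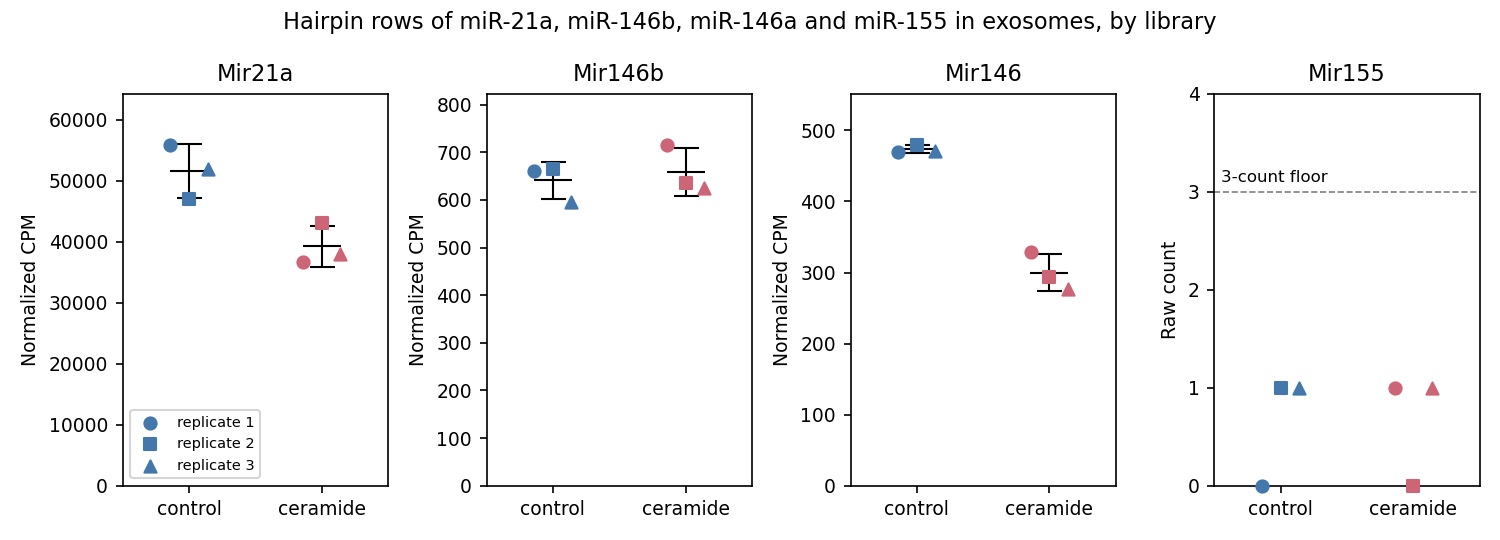
Levels of the 4 hairpin rows in each library, in normalized CPM for Mir21a, Mir146b and Mir146 and as raw counts for Mir155. Symbols mark the replicate number, and the bars show the mean and SD of 3 libraries. For Mir146 and Mir21a every ceramide point lies below every control point, the points of Mir146b overlap, and Mir155 never exceeds 1 count.

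The Mir146 row held 471, 675 and 644 counts in control replicates 1, 2 and 3, which correspond to 470, 480 and 471 CPM. It held 253, 776 and 650 counts in ceramide replicates 1, 2 and 3, or 329, 294 and 277 CPM. The 3 control libraries lay close together, and all 3 ceramide libraries lay below them with no overlap. Among the 418 rows tested, 105 (25.1%) were lower in ceramide with no overlap.

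The mean level of Mir146 was 474 ± 5.40 CPM in the control group against 300 ± 26.5 CPM with ceramide (SD, 3 libraries each). edgeR's quasi-likelihood test gave a log2 fold change of -0.66 with an SE of 0.10 and a Benjamini-Hochberg adjusted p of 0.0050, which corresponds to a level 1.58-fold higher in control. The 95% interval of the log2 fold change ran from -0.90 to -0.43, so it included the fold threshold. Replicate by replicate, the ceramide library was lower by a log2 difference of -0.52, -0.71 and -0.77 for numbers 1, 2 and 3.

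The spread of Mir146 among the control libraries was smaller than counting alone gives, with an SD of 5.40 CPM against a counting SD of 19.6 CPM. In the ceramide libraries the SD of 26.5 CPM was larger than the counting SD of 14.5 CPM. edgeR estimates the spread of a row with the help of all others, for which it gave a common biological coefficient of variation of 0.166.

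The call on Mir146 depended on the fold threshold and was lost in the fit with sequencing lane as a term. Its log2 fold change was -0.59 in edgeR when scaled by the size factors of DESeq2 and -0.60 by upper-quartile factors. It was -0.60 in DESeq2 itself, run on the same 418 rows. These values were just short of the threshold, whereas the authors' own DESeq2 analysis reported mir-146a as lower by the same thresholds. The adjusted p stayed at or under 0.05 in 14 of 15 alternatives. The exception was the fit with lane as a term, with a log2 fold change of -0.52 in edgeR. Its effect rests on replicate 1 of each group alone, because no other lane number held both groups. It therefore cannot show whether the call depends on lane. Only lane number 1 held a library of each group (replicate 1 of both). The other control libraries had lane number 4 and the other ceramide libraries lane number 2. These numbers come from the column names, which name no run, so a shared number need not mean a shared lane. Both libraries with lane number 1 also carry the same sample number in their column names, so they may come from separate runs.

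The Mir146b row held 663, 934 and 815 counts in the control libraries, equal to 662, 664 and 596 CPM. It held 551, 1677 and 1466 counts in the ceramide libraries, equal to 716, 635 and 624 CPM. The groups overlapped, and the highest level was in ceramide replicate 1 and the lowest in control replicate 3. The mean was 641 ± 38.4 CPM in the control group against 658 ± 50.1 CPM with ceramide (SD, 3 libraries each).

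For Mir146b, edgeR's quasi-likelihood test gave a log2 fold change of 0.04 with an SE of 0.10 and a Benjamini-Hochberg adjusted p of 0.79. The 95% interval of the log2 fold change, from -0.20 to 0.28, left room for a moderate change in either direction but not for one of the size of the fold threshold. The sign turned with the scaling, being -0.04 when libraries were scaled by their total counts alone.

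The contrast between both miR-146 hairpins was also measured inside each library, where it does not depend on the scaling of libraries. Mir146 made up 41.5%, 42.0% and 44.1% of the summed counts of Mir146 and Mir146b in the control libraries. The share was 31.5%, 31.6% and 30.7% in the ceramide libraries. The counting error of each share was small beside the gap, with the lowest control interval starting at 38.6% and the highest ceramide interval ending at 34.8% (95%, exact Clopper-Pearson, counting error only).

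The mean share of Mir146 was 42.5 ± 1.4% in control and 31.3 ± 0.49% in ceramide exosomes (SD, n = 3 each), a difference of -11.3 percentage points. A two-sided exact permutation test gave p = 0.1, and no smaller value is possible with 3 libraries in each group. As a log2 ratio of counts, Mir146 over Mir146b changed by -0.70 between the groups. Between the libraries with lane number 1 it changed by -0.63. In mean CPM, Mir146b exceeded Mir146 by 1.4-fold in control and by 2.2-fold in ceramide exosomes. These levels were compared without regard to hairpin length, because the mature miRNAs counted are 22 bases long in both.

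**Figure D2:**
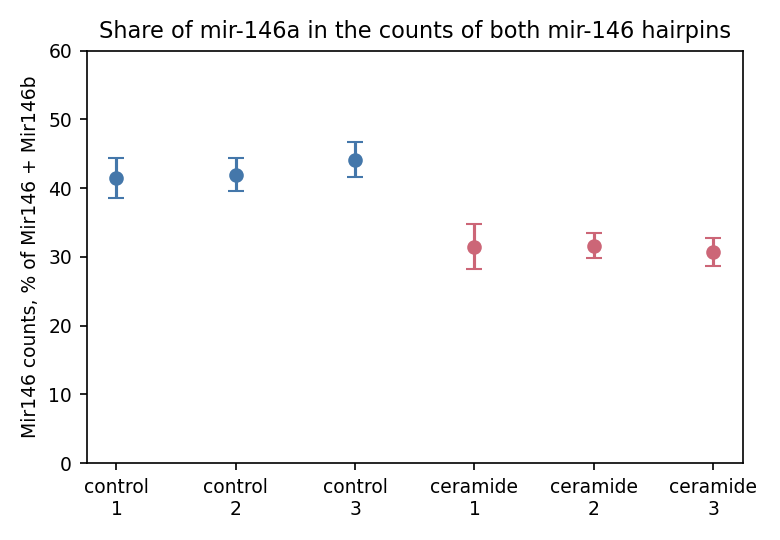
Share of Mir146 in the summed counts of Mir146 and Mir146b in each library, in percent, with 95% exact binomial intervals for counting error. The control libraries lie between 41.5% and 44.1% and the ceramide libraries between 30.7% and 31.6%.

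Because both hairpins give 5p miRNAs with the seed GAGAACU, the sum of their rows was fitted in place of the separate rows. The summed level was 1132, 1144 and 1068 CPM in the control libraries and 1046, 929 and 901 CPM in the ceramide libraries. All ceramide libraries were lower than all control libraries, by a smaller margin than for Mir146 alone. The mean was 1114 ± 41.0 CPM in the control group against 958 ± 76.9 CPM with ceramide (SD, 3 libraries each). edgeR's quasi-likelihood test over 417 rows gave a log2 fold change of -0.22 with an SE of 0.09 and a Benjamini-Hochberg adjusted p of 0.14, which did not pass the test.

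Mir21a held far more counts than the other members. It held 56028, 66193 and 70908 counts in the control libraries, which were 5.76%, 4.75% and 5.40% of all counts. In the ceramide libraries it held 28227, 113655 and 89073 counts, or 3.52%, 4.12% and 3.79% of all counts. It ranked 4, 5 and 4 among the rows of the control libraries and 6 in each ceramide library.

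In CPM, Mir21a was at 55912, 47064 and 51888 in control and at 36677, 43046 and 37923 in ceramide exosomes, again with no overlap. The means were 51621 ± 4430 and 39215 ± 3376 CPM (SD, n = 3 each). edgeR's quasi-likelihood test gave a log2 fold change of -0.40 with an SE of 0.09 and a Benjamini-Hochberg adjusted p of 0.032, corresponding to a level 1.32-fold higher in control. The row therefore passed the test but was not called. By the adjusted p with no fold threshold, 53 of the 418 rows (12.7%) were lower in ceramide. The 95% interval of the log2 fold change ran from -0.62 to -0.17.

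With its large counts, the precision of Mir21a was limited by the libraries and not by counting. The counting error was 0.397% of the mean in control and 0.423% in ceramide libraries, against a coefficient of variation of 8.58% and 8.61% between libraries. The size of its decrease was uneven over replicate numbers, with log2 differences of -0.61, -0.13 and -0.45 for numbers 1, 2 and 3. Its adjusted p stayed at or under 0.05 in 7 of 15 alternatives and its direction in all 15. In edgeR the adjusted p was 0.11 without control replicate 1, 0.073 without control replicate 3, 0.063 without ceramide replicate 1 and 0.066 without ceramide replicate 3. With lane as a term, where the effect rests on replicate 1 of each group, the log2 fold change was -0.61.

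The ratios to Mir21a differed between the miR-146 hairpins. The mean level of Mir21a was 109-fold that of Mir146 in control and 131-fold in ceramide exosomes, and it was 80.6-fold and 59.6-fold that of Mir146b. As a log2 ratio inside each library, Mir146 over Mir21a changed by -0.27 and Mir146b over Mir21a by 0.43. Over the 3 ratios compared, two-sided exact permutation tests gave p = 0.1 for Mir146 over Mir146b, 0.2 for Mir146 over Mir21a and 0.1 for Mir146b over Mir21a, with Benjamini-Hochberg adjusted values of 0.15, 0.2 and 0.15. None could reach 0.05 with 3 libraries a group. Between the libraries with lane number 1 the log2 change of Mir146 over Mir21a was 0.09, of the opposite sign. That of Mir146b over Mir21a was 0.72.

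**Figure D3:**
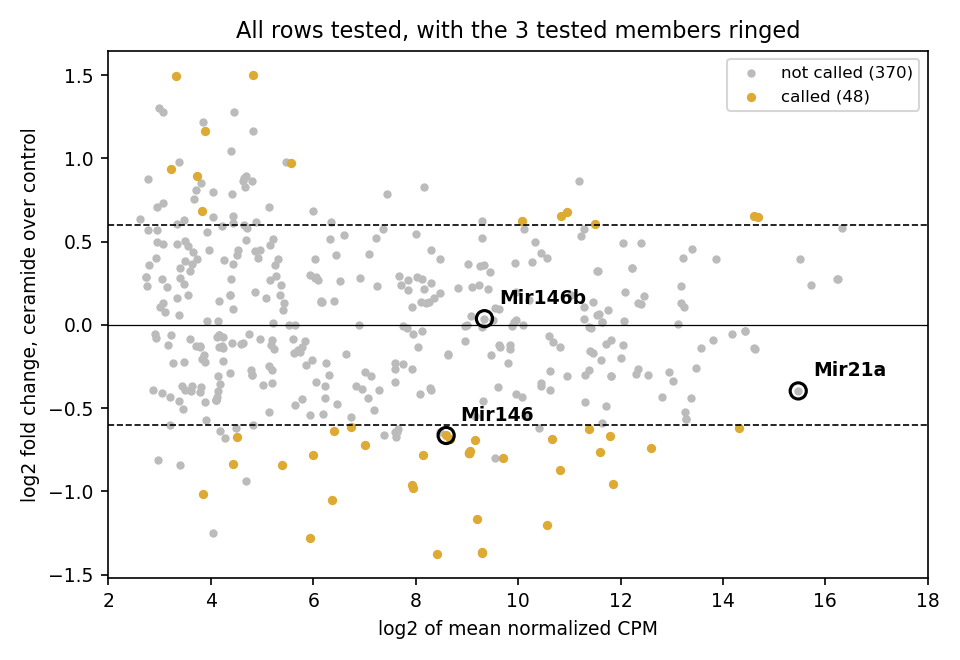
Log2 fold change of ceramide over control against the log2 of the mean normalized CPM for the 418 rows tested, with called rows in yellow and the 3 tested members ringed. Dashed lines mark the fold threshold of 0.6 in either direction. Mir146 lies just past the threshold at -0.66, Mir21a at the far right between the lines at -0.40, and Mir146b near 0 at 0.04.

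Mir155, the hairpin of the best-known pro-inflammatory miRNA, held 0, 1 and 1 counts in the control libraries and 1, 0 and 1 counts in the ceramide libraries. It was too low to be tested, and the counts of the groups overlapped. Over each group it had 2 of 3678954 counts in control, or 0.544 CPM without TMM scaling (95% interval 0.0658 to 1.96, exact Clopper-Pearson, counting error only), and 2 of 5912167 counts in ceramide, or 0.338 CPM (0.0410 to 1.22). The 3 counts that a reading of 0 allows amount to 2.99 CPM in control replicate 1 and 1.14 CPM in ceramide replicate 2. No fold is given, since both groups were under that limit. A fall or a small rise of miR-155 was not detectable at this depth.

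A single count at this level is weak evidence that a miRNA is present. Of the 1058 rows with any count, 218 never exceeded 1 count in a library. The namesakes of miR-21a were at the same level, and their sequences are shown because they resemble the abundant miR-21a-5p.
Mir21b, miR-21b: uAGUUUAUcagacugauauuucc
Mir21c, miR-21c: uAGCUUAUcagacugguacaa
Capitals again mark the seed. Mir21b (ENSMUSG00000098315, chr3:29636744-29636851) held 1 count in every library, and Mir21c (ENSMUSG00000099326, chr8:128278148-128278225) held 0, 1 and 1 counts in control and 1, 0 and 1 counts in ceramide libraries. miR-21c shares the seed and the first 15 bases of miR-21a-5p, and miR-21b differs from it already in the seed, by C4U. The row of miR-21a was thus the only one of the 3 with more than 1 count in any library.

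Across the 6 libraries, the levels of the tested members differed in their company. The rows with the pattern most like that of Mir146, by Pearson's r of log2 CPM over 6 libraries, were Mir19a (r = 0.997), Mir19b-1 (r = 0.993) and Mir344d-3 (r = 0.992). These 3 rows were lower in ceramide too, with log2 fold changes of -1.38, -1.37 and -0.76 and an adjusted p of 0.0026 each in edgeR. The rows most like Mir146b were Mir743b (r = 0.939), Mir743 (r = 0.932) and Mir467d (r = 0.898), with log2 fold changes of -0.02, -0.01 and 0.27 that did not pass the test. The rows most like Mir21a were Mir129-2 (r = 0.985), Mir7689 (r = 0.976) and Mir434 (r = 0.946), which were far less abundant, at 18.2 CPM or less in control, and did not pass the test. The likeness is a description, chosen as the highest of all tested rows, and the libraries share the contrast between the groups.

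The members were set beside a list of other miRNAs described as products or regulators of Toll-like receptor and NF-κB signalling. Of its 28 hairpins, 27 had a row and all 27 were tested, in 21 sets when rows with near-identical counts are joined. Of the 27 rows, 3 were called lower (Mir221, Mir222 and Mir125a), none was called higher and 24 were not called. Of all tested rows, 8.37% were called lower and 11.5% in either direction. Mir223, a myeloid miRNA, had a log2 fold change of 0.58 with an SE of 0.17 and an adjusted p of 0.055 in edgeR. It was called higher with the size factors of DESeq2 and with a filter of at least 10 counts in every library. The 3 called lower were already known to be called in these libraries when the list was written, so the count is not independent evidence of a direction. The median log2 fold change was -0.17 in the list and -0.01 over all 418 rows. Of the list, 20 rows were below 0 and 7 above, against 212 below and 206 above among all tested rows. The 20 and 7 count near-identical rows separately.

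Mir221 and Mir222, a neighbouring pair of hairpins studied in proliferation and vascular inflammation, had the largest changes of the list. Mir221 was at 2103 ± 93.4 CPM in the control group against 911 ± 109 CPM with ceramide (SD, 3 libraries each), with a log2 fold change of -1.20 with an SE of 0.11 and an adjusted p of 0.0018 in edgeR. Mir222 was at 328 ± 13.6 CPM in control and 167 ± 11.3 CPM with ceramide (SD, 3 libraries each), a log2 fold change of -0.98 with an SE of 0.10 and an adjusted p of 0.0026 in edgeR. Both fell further than Mir146 in point estimate. Whether their changes differ from that of Mir146 was not tested.

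Mir125a, a relative of lin-4 that targets the NF-κB regulator A20, was at 7790 ± 1008 CPM in the control group against 4673 ± 534 CPM with ceramide (SD, 3 libraries each), with a log2 fold change of -0.74 with an SE of 0.13 and an adjusted p of 0.0077 in edgeR. The rows of the list with the most counts were not called. Mirlet7i, a let-7 miRNA that targets TLR4, had a log2 fold change of 0.40 with an SE of 0.13 and an adjusted p of 0.071 in edgeR, and Mir125b-1 had one of -0.14 with an adjusted p of 0.28. The miR-181 rows Mir181a-1, Mir181a-2, Mir181b-1 and Mir181b-2 had log2 fold changes between -0.66 and -0.62 that did not pass the test without a replicate block. A replicate block brought the called rows of the list to 7, the 4 miR-181 rows joining the first 3, and the called rows of the whole table to 87 of 418.

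**Figure D4:**
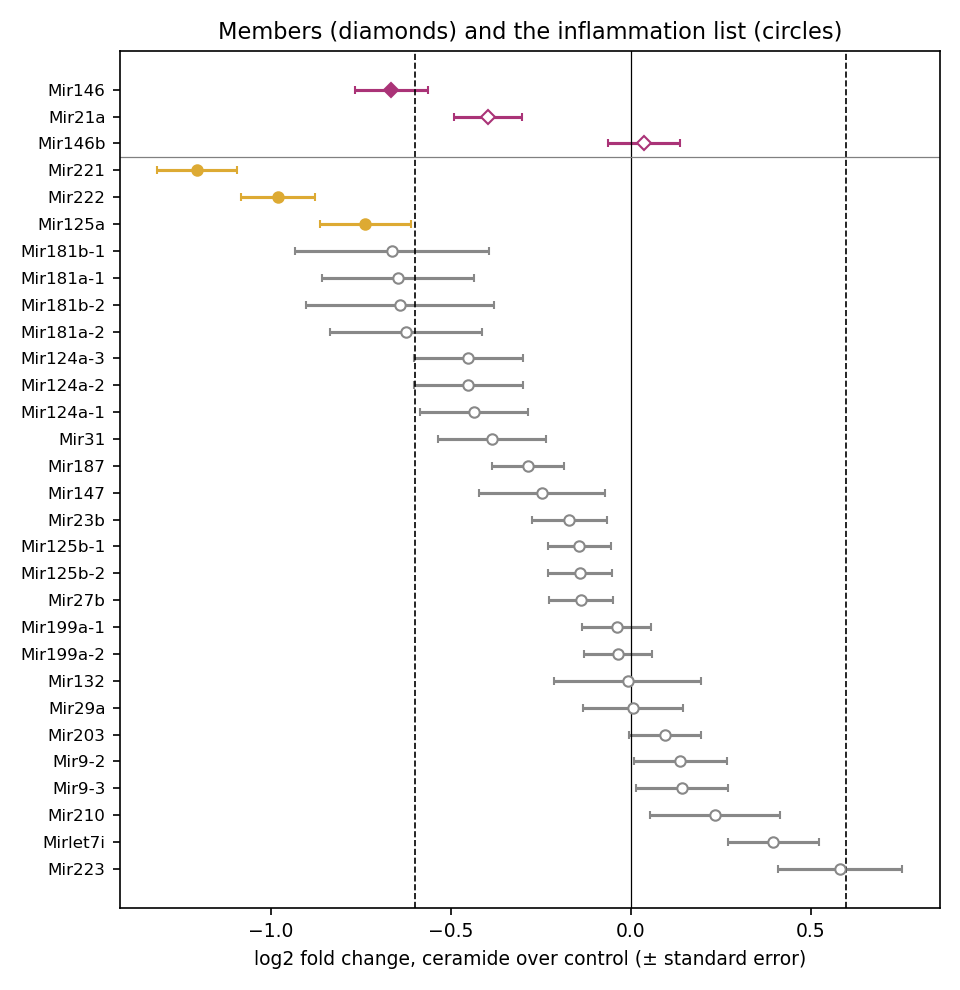
Log2 fold change of ceramide over control with its standard error for the 3 tested members (diamonds) and the 27 rows of the inflammation list (circles). Filled symbols were called, and dashed lines mark the fold threshold of 0.6. Mir146 is the filled diamond, and the filled circles are Mir221, Mir222 and Mir125a.

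Markers of the cells that could have supplied the exosomes were summed in each library. Neural miRNAs had counts in every library in all 9 rows found, and their summed level was 8114 to 9300 CPM in the control group and 5864 to 6477 CPM with ceramide. Most of this sum was miR-138 and miR-128, and the 2 rows called, both lower, were Mir138-1 and Mir128-2. The miR-9 rows did not share this direction, with 67.3 CPM in control and 74.3 CPM with ceramide for Mir9-2 and a log2 fold change of 0.14 for both Mir9-2 and Mir9-3 that did not pass the test. The defining neuronal miR-124a was scarce, with 11 to 39 counts in each library for Mir124a-2.

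Leukocyte and microglial miRNAs had 30.9 to 36.3 CPM in the control group and 37.0 to 48.1 CPM with ceramide, over the rows Mir223 and Mir150. The means of these rows went opposite ways, from 20.5 to 31.4 CPM for Mir223 and from 13.9 to 10.9 CPM for Mir150. The other names on that list, Mir142 and Mir142a, had no row. A row named Mir142b was not on the list and was added after its values were seen. It was at 26.2 CPM in control and 34.7 CPM with ceramide and was not called. miRNAs of red cells and serum (Mir451a, Mir144, Mir486 and Mir122) had 353 to 389 CPM in the control group and 314 to 376 CPM with ceramide. All 6 rows of these marker lists held counts in every library and none was called in the reported fit. Mir223 was close to the thresholds, as given for the inflammation list. The part of serum, other cells or the neural sum in the changes of Mir146 and Mir21a was not tested.

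**Figure D5:**
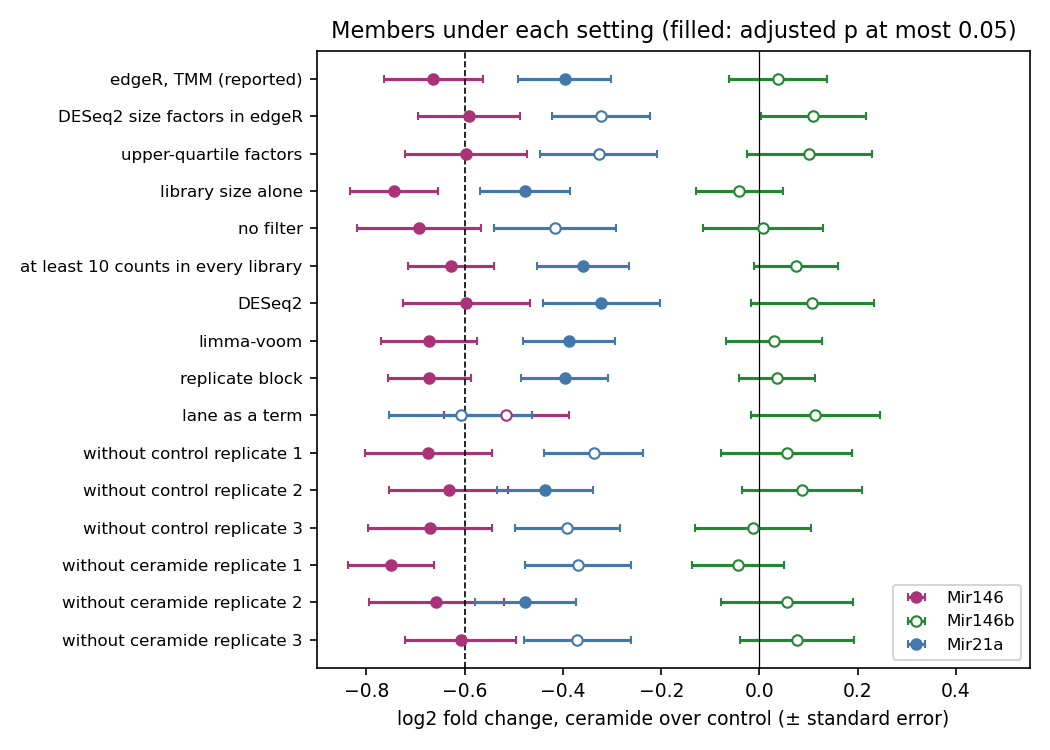
Log2 fold change of ceramide over control with its standard error for Mir146, Mir146b and Mir21a as reported and under 15 other settings. Filled points have an adjusted p of at most 0.05, the solid line marks 0 and the dashed line the fold threshold of -0.6. Mir146 ranges from -0.75 to -0.52, Mir21a from -0.61 to -0.32 and Mir146b from -0.04 to 0.11.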

How the data were processed

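Raw counts per miRNA hairpin gene were deposited by the authors, who built libraries with the QIAseq miRNA kit, trimmed reads with cutadapt (1.15), aligned them to GRCm38 with STAR (2.5.3a) and assigned them to GENCODE genes. The handling of strand, multiply aligned reads and unique molecular identifiers is not given in the sources used here, so intervals cover counting error only. Of 1973 rows, 1894 matched GENCODE M21 and 79 did not.

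Counts of all 6 libraries were tested with edgeR 4.0.16 in R 4.3.3 (quasi-likelihood test, TMM, filterByExpr, condition alone) and Benjamini-Hochberg adjustment over 418 rows. DESeq2 1.42.0 and limma-voom (limma 3.58.1) were alternatives, with other scalings, filters, a replicate block, lane as a term and leaving out each library. Standard errors were derived from edgeR's F statistic. Ratios used counts plus 0.5, and log2 CPM a prior count of 2. The procedure was tested on simulated data.

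Replicate numbers come from the labels, which name no experiment that equal numbers have in common. Deviations from group means of same-numbered libraries correlated at 0.59, 0.43 and 0.75, all over 0.1. Those of differently numbered libraries correlated at -0.593 to 0.105, the highest also over 0.1. The numbers were taken as a possible pairing. That pairing was used in the replicate block and in the differences by replicate number, while the reported tests used condition alone. What the correlation reflects was not tested.

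The members and lists were chosen with earlier results of these data known. Named rows were the members, called rows of the inflammation list with its 2 most counted and 2 most changed rows, the 3 rows most correlated with each tested member (leaving out rows within 5% of its counts in every library), rows sharing a seed or name, and markers.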

Additional observations from a re-analysis of the deposited data

How the results depend on the processing

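Results were recomputed under 15 other settings, or 10 for ratios. Mir146 was called in 11 of 15. The 4 that ended the call were DESeq2's size factors (log2 fold change -0.59), upper-quartile factors (-0.60), DESeq2 (-0.60) and lane as a term (-0.52). Leaving out 1 library gave -0.75 to -0.61 for Mir146, -0.044 to 0.086 for Mir146b, -0.48 to -0.34 for Mir21a and -0.30 to -0.17 for the sum of both miR-146 rows, which was called in none. Mir146b turned to -0.041 with library size alone, and fell below 0 without control replicate 3 or ceramide replicate 1. Mir21a (-0.40) would be called by the adjusted p alone, a setting added after the data were seen. Removing Mir21a from the table, also added then, left Mir146 at -0.66 and Mir146b at 0.04.

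The replicate block raised the called rows from 48 to 87 and those of the inflammation list from 3 to 7, and changed no other call. With lane as a term they were 29 and 1 (Mir221). Leaving out 1 library gave 28 to 55 called rows, the lowest without control replicate 1, and 3 rows of the list each time. The list had 4 called rows, Mir223 the added one and higher, with DESeq2's size factors in edgeR and with at least 10 counts in every library. Between the libraries with lane number 1, 1 library a group, the change in log2 ratio was -0.63 for Mir146 over Mir146b. It was 0.094 for Mir146 over Mir21a (reversed) and 0.72 for Mir146b over Mir21a. Leaving out 1 library, these were -0.73 to -0.65, -0.38 to -0.19 and 0.33 to 0.53. The cause of these shifts was not tested.

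Depth limits Mir155, which had 2 counts in each group. Lane and condition cannot be told apart outside lane 1, and the labels do not say whether its libraries shared a run.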
